A study of Mus musculus with 2 samples.

Results

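Olfactory receptor genes lie in large clusters, and the 5 clusters described here, on mouse chromosomes 2, 7 and 9, held 195 of the 92924 p53 peaks called in Nutlin-treated embryonic stem cells of the mouse. A peak was taken as a member if its midpoint lay inside one of the intervals given below, so neither its score nor its width took part in the choice. The clusters together spanned 16.2 Mb of build mm9. They are set against the 5 Mb on each side of each cluster, called flanks here, which spanned 50 Mb and held 2360 peaks.

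The clusters were chr2:36100001-37200000 (chromosome 2 cluster 1), chr2:85000001-89900000 (chromosome 2 cluster 2), chr2:111000001-112100000 (chromosome 2 cluster 3), chr7:109000001-115600000 (the chromosome 7 cluster) and chr9:37500001-40000000 (the chromosome 9 cluster). Their borders are rounded positions and were not set from a gene annotation of mm9.

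The series has 1 library of chromatin pulled down with a p53 antibody (M-19) and 1 library of input chromatin. Both came from cultured mouse embryonic stem cells of strain C57BL/6X129Sv mix at fewer than 20 passages, grown with leukemia inhibitory factor and exposed to Nutlin for 8 hours before fixation. The dose was given as 20 µM in one place and 20 mM in another, so its unit is not settled. There was no untreated library and no replicate, so the values describe where peaks lay in these treated cells, without an error between cultures, and no p-value is given.

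p53 is a transcription factor that recognises a specific DNA sequence, and Nutlin lets it accumulate by blocking its contact with the ubiquitin ligase Mdm2. Olfactory receptors are G protein-coupled receptors of the sensory neurons of the nose. Each such neuron expresses a single receptor gene out of the whole repertoire, and in most other cell types the clusters are known as silent chromatin. Expression was not measured in this series, so whether these genes were silent in these cells was not tested.

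The RefSeq table at hand is on another build (GRCm38) and was used only for gene names and their order. Runs expected to correspond to the 5 clusters were picked by hand from their neighbours, and no position was carried over. These runs held 575 of the 1110 protein-coding olfactory receptor genes of the genome (51.8%). Between Ptgs1, a prostaglandin synthase gene, and Pdcl on chromosome 2, 28 receptor genes stood with no other protein-coding gene among them. Between Lrrc55 and Ptprj there were 222 receptor genes and 3 others, and between A26c3 and Lpcat4 there were 37 and 1. On chromosome 9, 95 receptor genes and 3 others stood between Panx3 and Zfp202. Chromosome 7 was the most mixed, with 193 receptor genes in 12 blocks and 55 other genes between Rrm1, which encodes a ribonucleotide reductase subunit, and Nlrp10. Those others included 5 beta-globin genes, 13 Trim genes, 5 Usp17-like genes and broadly used genes such as Ilk (integrin-linked kinase), Tpp1 (a lysosomal peptidase), Smpd1 (acid sphingomyelinase) and Taf10 (a subunit of the general transcription factor TFIID). Peaks were not placed on genes, because no mm9 annotation was used here.

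p53 peaks were far sparser in the olfactory receptor clusters than beside them. The clusters held 12.0 peaks per Mb (95% Poisson interval 10.4 to 13.9), against 47.2 per Mb in the flanks (45.3 to 49.1). The ratio of clusters to flanks was 0.255 (exact conditional 95% interval 0.219 to 0.295). The autosomes as a whole had 38.2 peaks per Mb, and the ratio of the clusters to them was 0.315 (0.272 to 0.362). Peaks covered 0.637% of the length of the clusters, against 2.69% of the flanks. All these intervals cover counting error only and treat peaks as independent, although peaks gather.

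The 5 clusters differed widely. Chromosome 2 cluster 1 held 3 peaks in 1.1 Mb, or 2.73 per Mb (0.562 to 7.97), against 72.4 per Mb in its flanks. Chromosome 2 cluster 2 held 26 peaks in 4.9 Mb, or 5.31 per Mb (3.47 to 7.77), against 38.6 per Mb in its flanks. Chromosome 2 cluster 3 held 9 peaks in 1.1 Mb, or 8.18 per Mb (3.74 to 15.5), against 13.6 per Mb in its flanks. It was the only cluster whose ratio to its joint flanks had an interval that included 1 (0.602, 0.269 to 1.18). The intervals of these 3 densities overlap.

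The chromosome 9 cluster held 21 peaks in 2.5 Mb, or 8.40 per Mb (5.20 to 12.8), against 47.3 per Mb in its flanks. The chromosome 7 cluster, with 136 peaks in 6.6 Mb, held 69.7% of all members, at 20.6 per Mb (17.3 to 24.4) against 64.1 per Mb in its flanks. Its interval lay above those of the other 4 clusters. Without chromosome 7 the other 4 clusters held 59 peaks at 6.15 per Mb (4.68 to 7.93), against 43.0 per Mb in their flanks, a ratio of 0.143 (0.108 to 0.185). The chromosome 7 cluster was also the one with the most genes of other kinds in the RefSeq order, and the part of those genes in its peak count was not tested.

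All 10 flanks were denser than the cluster they adjoin, and for 9 of them the interval of the ratio lay below 1. The widest contrast was between chromosome 2 cluster 1 and its left flank, which had 121.6 peaks per Mb (ratio 0.0224, interval 0.00461 to 0.0659). The exception was the left flank of chromosome 2 cluster 3, which itself had only 9.60 peaks per Mb (ratio 0.852, interval 0.368 to 1.76). The left flank of chromosome 2 cluster 2 was also sparse, at 12.8 per Mb (ratio 0.415, interval 0.252 to 0.663). Low peak density was therefore not confined to the receptor clusters within these regions of chromosome 2.

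**Figure D1:**
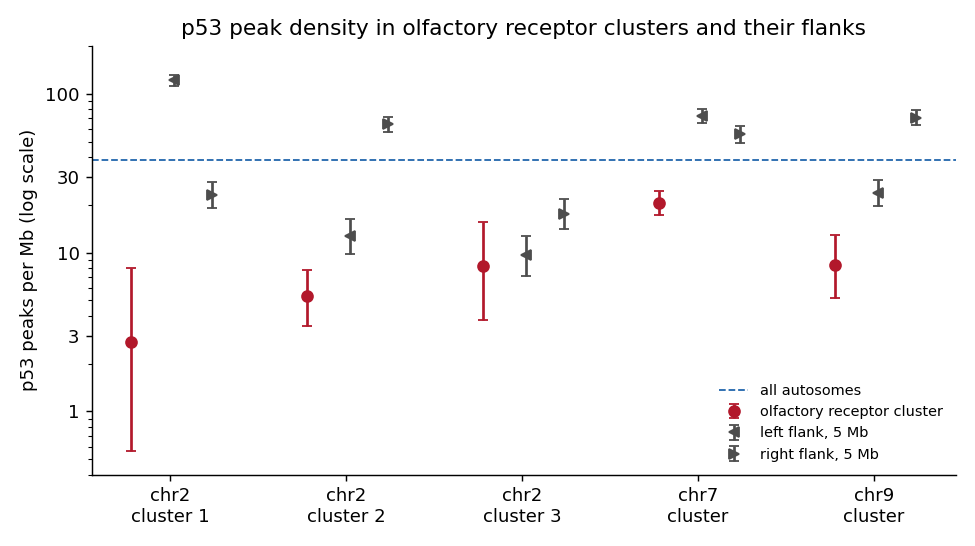
p53 peaks per Mb (log scale) in each olfactory receptor cluster (red circles) and in its left and right flank of 5 Mb (grey triangles), with 95% Poisson intervals, and the autosomal density as a dashed line. Each cluster lies below both of its flanks, from 2.73 per Mb in chromosome 2 cluster 1 to 20.6 per Mb on chromosome 7. The interval of chromosome 2 cluster 3 overlaps those of both its flanks. The ratio of that cluster to its right flank was nevertheless 0.465 (interval 0.206 to 0.923).

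The clusters were also sparser in strong peaks. The score is the authors' own value per peak, on which larger means a smaller p-value of ChIP against input. Of the 195 members, 84 scored 100 or more, or 5.19 per Mb, against 19.9 per Mb in the flanks (ratio 0.261, interval 0.206 to 0.326). At 1000 or more there were 11 members, or 0.679 per Mb, against 2.78 per Mb in the flanks (ratio 0.244, interval 0.119 to 0.451).

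Pooled over the 5 clusters, the scores of members were close to those of flank peaks, with most members on chromosome 7. The share scoring 100 or more was 43.1% (exact Clopper-Pearson 95% interval 36.0% to 50.3%) in the clusters and 42.1% (40.1% to 44.1%) in the flanks, with 43.0% of all peaks of the list past this score. The share scoring 1000 or more was 5.64% (2.85% to 9.87%) in the clusters and 5.89% (4.97% to 6.92%) in the flanks, with 5.77% over the list. Both shares in the clusters lay near the background. The median score was 89.5 (exact 95% interval 76.1 to 100.6) in the clusters and 84.9 (82.4 to 89.1) in the flanks. These intervals leave room for modest differences in either direction. Without chromosome 7 the share scoring 200 or more was 33.9% (22.1% to 47.4%) of 59 members, against 20.8% (18.9% to 22.8%) of 1719 flank peaks. At 1000 or more it was 10.2% (3.82% to 20.8%), against 5.76% (4.71% to 6.97%) in those flanks. Both shares were higher in these 4 clusters than in their flanks. The intervals overlap, at 200 or more only slightly, and the shares were not compared directly.

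Each cluster taken alone gives a wide interval. In chromosome 2 cluster 2, 15 of 26 peaks scored 100 or more (57.7%, interval 36.9% to 76.6%), and its median was 119. In the chromosome 7 cluster 56 of 136 did (41.2%, 32.8% to 49.9%), with a median of 83.5. On chromosome 9 it was 9 of 21, with a median of 92.9. In chromosome 2 cluster 3 it was 3 of 9, with a median of 67.0, and in chromosome 2 cluster 1 it was 1 of 3, with a median of 65.7. The intervals of the clusters overlap, but the clusters were not compared directly. At 200 or more the share was 42.3% (11 of 26, interval 23.4% to 63.1%) in chromosome 2 cluster 2. In the chromosome 7 cluster it was 17.6% (24 of 136, 11.6% to 25.1%), and these intervals overlap only slightly.

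The 11 members scoring 1000 or more lay in 4 of the 5 clusters, and chromosome 2 cluster 1 had none. On chromosome 7 there were 5. The highest, chr7:109627709-109628640, had a score of 3100, a value at which scores of this list pile up, and was 932 bases wide. Close to its left lay chr7:109607173-109608251, which scored 2734.29 and was the widest of the 5, at 1079 bases. Nearer to the left border, chr7:109261387-109262363 scored 1781.80. The remaining strong peaks of this cluster, chr7:114777214-114777928 (score 1292.04) and chr7:114663733-114664412 (score 1235.65), lay toward its other end. All 5 had another peak nearby, from 0.208 to 16.6 kb away.

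On chromosome 9, by contrast, both strong peaks stood alone. The peak chr9:39548265-39549008 had a score of 3100 and a width of 744 bases, and its nearest neighbours in the list were 153.6 kb and 175.6 kb away. The peak chr9:38687749-38688537 scored 1292.29, with neighbours 160.2 kb and 191.3 kb away. It was also the widest member of that cluster, at 789 bases.

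Chromosome 2 cluster 2 held 3 strong peaks. The strongest, chr2:87262665-87263216, scored 3070.61 at a width of only 552 bases and lay 2263 kb inside the nearer border. The peak chr2:89156043-89156809 scored 1747.39 and was followed by 435.1 kb without a peak. The peak chr2:85027557-85028260 scored 2286.64 and lay only 27.9 kb inside the left border. In chromosome 2 cluster 3 the single strong peak, chr2:112042956-112043624 (score 2290.67), lay 56.7 kb inside the right border. The highest score in chromosome 2 cluster 1 was 262.36, at chr2:36600683-36601146, with no other peak within 374.1 kb.

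**Figure D2:**
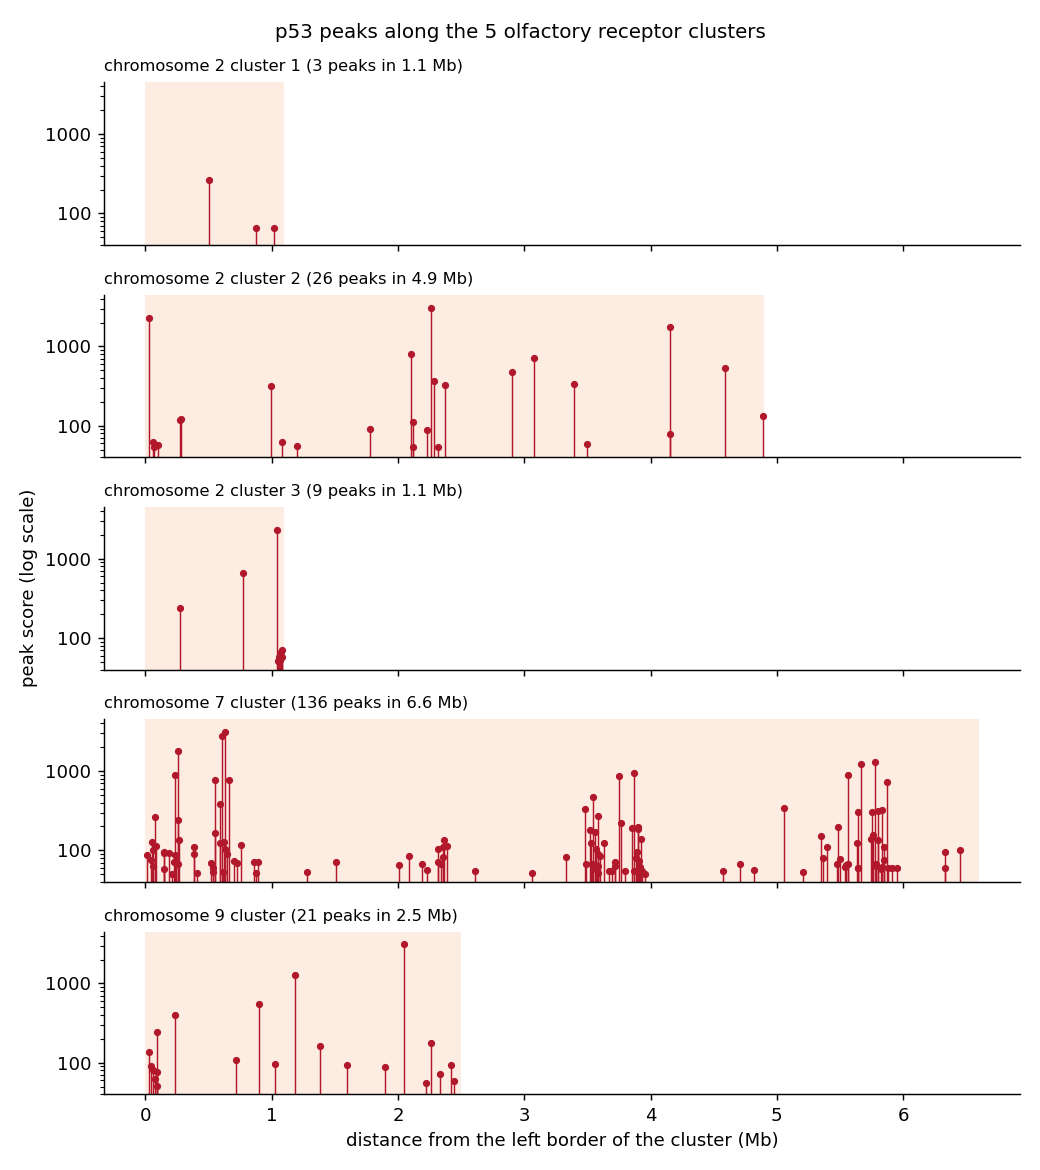
Position of each of the 195 members along its cluster (distance from the left border in Mb, shaded to the right border) against its score (log scale). On chromosome 7, 115 of 136 peaks stand in 5 dense groups, chromosome 2 cluster 1 has 3 single peaks, and the highest scores reach 3100 on chromosomes 7 and 9.

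Most members stood in a few short stretches, chiefly on chromosome 7. Peaks were put in the same group if less than 100 kb separated neighbours, a rule chosen after the positions had been seen. There were 51 groups, of which 33 were single peaks and 9 had 5 peaks or more. Those 9 groups covered 2.22 Mb, or 13.7% of the length of the clusters, and held 139 peaks (71.3%), of which 115 were on chromosome 7. They held 12 of the 21 peaks on chromosome 9, 7 of 9 in chromosome 2 cluster 3, 5 of 26 in chromosome 2 cluster 2 and 0 of 3 in chromosome 2 cluster 1. Outside them the density was 4.01 peaks per Mb. Flank and autosomal peaks were not grouped in this way, so these shares have no background beside them. Whether such grouping is particular to the clusters was not tested.

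On chromosome 7, 5 such groups held 115 of the 136 peaks in 26.6% of the length. The largest ran over chr7:112481630-112959823 with 37 peaks, none of which scored 1000 or more. Another, chr7:114352672-114948303, held 32 peaks, 2 of them scoring 1000 or more. Near the left border lay chr7:109013580-109263035 with 20 peaks and chr7:109523059-109753797 with 17, and a smaller group of 9 peaks, with a highest score of 135.19, spanned chr7:111188574-111388948. Outside these 5 groups the chromosome 7 cluster had 4.33 peaks per Mb. The same remainder was 4.41 per Mb in chromosome 2 cluster 2 and 4.06 per Mb on chromosome 9. It was 1.88 per Mb in chromosome 2 cluster 3 and 2.73 per Mb in chromosome 2 cluster 1, which had no such group. This is a description, since the groups were drawn from the peaks themselves.

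The densest 100 kb of the clusters was on chromosome 7, from 112500001 to 112600000, with 12 peaks. In chromosome 2 cluster 3, 7 of the 9 peaks lay in its last 100 kb, from 112000001 to 112100000. On chromosome 9, 7 of the 21 peaks lay in the first 100 kb of the cluster. The densest window of chromosome 2 cluster 2 was likewise its first, with 4 peaks. Chromosome 2 cluster 1 had no window with more than 1 peak.

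Empty stretches took up most of the receptor clusters. Of their 162 windows of 100 kb, 89 held no peak (54.9%, exact interval 46.9% to 62.8%), against 108 of 500 in the flanks (21.6%, 18.1% to 25.5%) and 25.4% of all autosomal windows. Without chromosome 7 the share was 63.5% (53.1% to 73.1%) in the clusters and 25.3% (21.1% to 29.8%) in the flanks. Single clusters ran from 42.4% (chromosome 7) to 72.7%. Single flanks ran from 2.0% to 48.0% (left flank of chromosome 2 cluster 2), so the 2 ranges overlap. At the other extreme, 1 of the 162 cluster windows held 10 peaks or more, against 85 of the 500 flank windows.

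**Figure D3:**
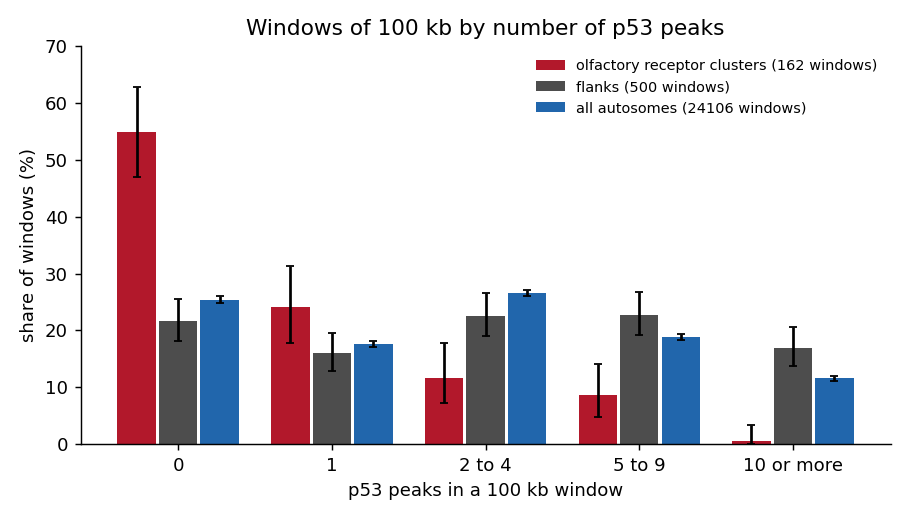
Share of 100 kb windows (%) by the number of p53 peaks they hold, for the olfactory receptor clusters (red), their flanks (grey) and all autosomes (blue), with exact 95% intervals. Windows with 0 peaks make up 54.9% of the clusters, 21.6% of the flanks and 25.4% of the autosomes.

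Stretches of 100 kb or more without any peak covered 13.4 Mb of the clusters (82.7% of their length), against 18.9 Mb of the flanks (37.8%). Single clusters ran from 71.0% (chromosome 7) to 94.7%, and each lay above its own flanks. On chromosome 2, the right flank of cluster 1 (72.1%) and the left flanks of cluster 2 (71.0%) and cluster 3 (74.7%) were about as empty as the chromosome 7 cluster. All other flanks lay at 53.2% or below. Those of 500 kb or more numbered 7 in the clusters, covering 25.2% of the length, and 4 in the flanks, covering 5.21%. In chromosome 2 cluster 2 the longest ran for 714.2 kb, from 85279102 to 85993324. The longest on chromosome 7 was 611.5 kb, from 112959824 to 113571286, directly after the largest dense group. Chromosome 2 cluster 1 opened with 500.7 kb without a peak, counted from its left border. Those of chromosome 2 cluster 3 (494.4 kb) and chromosome 9 (483.2 kb) were similar in length. A stretch of 863.8 kb in the left flank of chromosome 2 cluster 2 was longer than any of them. Unassembled sequence was not identified here, so a gap in the assembly and a stretch without enrichment cannot be told apart.

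Fewer of the members than of the flank peaks had a close neighbour when all clusters were pooled. Of the 195 members, 105 had another peak within 10 kb (53.8%, interval 46.6% to 61.0%), against 1816 of the 2360 flank peaks (76.9%, 75.2% to 78.6%) and 73.6% of autosomal peaks. The median distance to the nearest peak was 7.77 kb in the clusters and 3.09 kb in the flanks. The chromosome 7 cluster, at 5.24 kb, was nearer to the flanks than the other 4 clusters together, at 33.6 kb. In chromosome 2 cluster 1 no peak had another within 10 kb. Sparser peaks have farther neighbours by construction, so these values are not separate from the lower density. The same holds for the share of isolated peaks given next.

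Peaks with no other within 100 kb on either side made up 32 of the 195 members (16.4%, interval 11.5% to 22.4%), against 30 of 2360 in the flanks (1.27%, 0.859% to 1.81%) and 1.63% of autosomal peaks. These isolated members showed no clear difference in score from isolated peaks elsewhere. Their median score was 98.5 (exact interval 66.5 to 339.5), against 109.6 (65.6 to 192.9) for those of the flanks and 109.4 (102.7 to 117.1) for the 1502 isolated peaks of the autosomes. Scores of 1000 or more were held by 2 of the 32, both on chromosome 9 and described above (6.25%, 0.766% to 20.8%), and by 8.19% of isolated autosomal peaks (6.85% to 9.69%). At these counts the intervals of the isolated members are wide, and they hold the values of the autosomes.

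Density was already lower just inside the cluster borders when all borders were pooled. The 250 kb just inside the borders held 17.2 peaks per Mb (12.4 to 23.2), against 42.4 per Mb (34.7 to 51.3) in the 250 kb just outside. From 250 to 500 kb inside the density was 6.40 per Mb (3.66 to 10.4), and from 250 to 500 kb outside it was 51.2 per Mb (42.7 to 60.9). From 500 to 1000 kb inside it was 15.6 per Mb, and deeper than 1000 kb it was 10.8 per Mb, where only the larger clusters still contribute. In both of these zones most of the peaks lay on chromosome 7, and the profile was not split by cluster. Of the 10 borders, 9 had more peaks in the 250 kb outside than inside. The exception was the right border of chromosome 2 cluster 2, with 1 peak inside and 0 outside. The size of the drop varied widely. It was largest at the left border of chromosome 2 cluster 1, with 0 inside and 22 outside. The chromosome 7 cluster had nearly equal counts, with 16 inside and 17 outside on the left and 1 and 2 on the right.

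The members nearest to the borders on the inside scored from 59.2 to 2286.64 (median 116.4), and lay 7.98 to 500.9 kb from the border. The nearest peaks outside scored from 76.2 to 651.45 (median 227.0), at 1.66 to 335.3 kb. Counting any peak that overlaps a cluster by at least 1 base, in place of those with the midpoint inside, left the density in the clusters at 12.0 per Mb.

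Members of score 200 to under 1000 were narrower than flank peaks of the same score class, and in the lower classes the interval of the clusters held the median of the flanks. Over all scores the median width was 503 bases (exact interval 479 to 527) in the clusters and 519 (509 to 529) in the flanks. Single flanks ranged from 451 bases (left of chromosome 2 cluster 3) to 557.5 (left of chromosome 2 cluster 1), and single clusters from 464 to 522. Single flanks were not split by score class. Members ranged from 227 to 1323 bases, and the widest was chr7:109231397-109232719, with a score of 889.29. At scores of 50 to under 100 the medians were 446 bases (430 to 476) in the clusters and 448 (442 to 455) in the flanks. At 100 to under 200 the median was 580.5 bases (524 to 641) in the clusters and 600.5 (583 to 614) in the flanks.

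At 200 to under 1000 the median was 562 bases (508 to 648) over 33 members, against 696 (676 to 723) over 359 flank peaks, and the intervals do not overlap. Over all autosomes the median of this class was 678 (675 to 682). At 1000 or more it was 744 (669 to 977) over 11 members, against 919 (829 to 973) over 139 flank peaks, and the intervals overlap. The narrower width was clearest outside chromosome 7. There the 20 members of score 200 or more had a median of 552 bases (508 to 671), against 737 (710 to 763) for 358 flank peaks. In the chromosome 7 cluster the 24 such members had a median of 666 (562 to 914), which overlaps the width of all flank peaks of this score (738.5, interval 712 to 761). Score and width were both set by the peak caller, and the number of reads behind them is unknown.

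**Figure D4:**
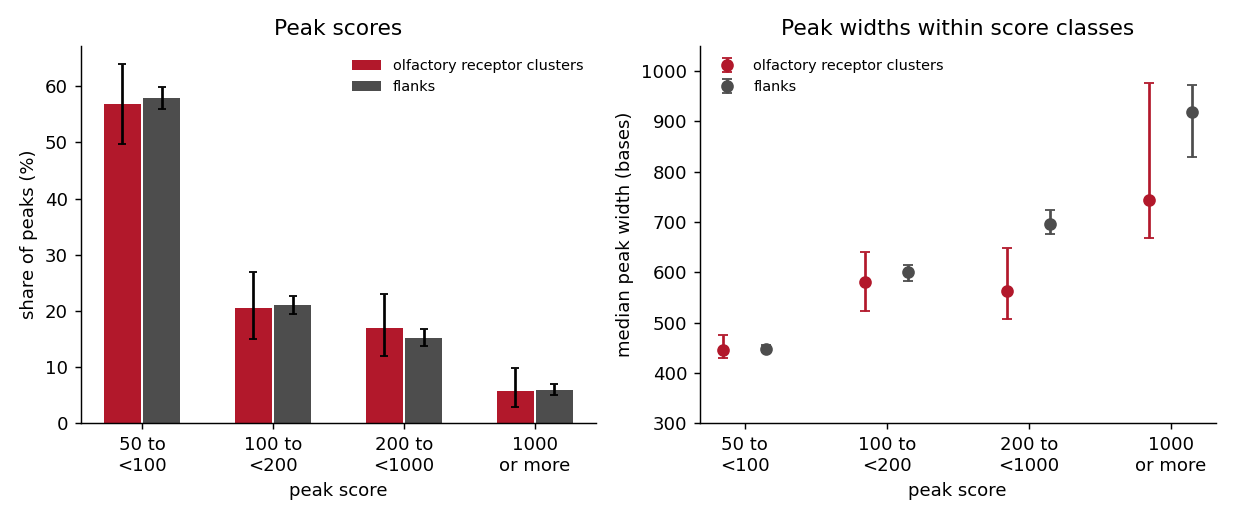
Left, share of peaks (%) in 4 score classes with exact 95% intervals. Right, median peak width (bases, axis from 300) in the same classes with exact 95% intervals, for the clusters (red) and the flanks (grey). The score classes hold similar shares, and at scores of 200 to under 1000 the clusters have a median width of 562 bases against 696 in the flanks.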

How the data were processed

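The deposited file lists 92924 peaks of 1 p53 ChIP library against 1 input library, with position and score. MACS 1.4.1, CASAVA 1.8.2 and build mm9 stand in the submitters' processing notes. The sources used here do not give the aligner, the caller's settings, the read totals (depth is therefore unknown) or how reads matching several places were treated. The authors' score is left as deposited; on this caller's scale, −10 × log10 p, the file starts at 50. Starts are printed counted from 1.

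Peaks were counted by midpoint with pandas 2.3.3 and NumPy 2.4.6 in Python 3.11.15. Intervals came from SciPy 1.17.1 and figures from Matplotlib 3.10.9. Densities have exact Poisson intervals, ratios of density exact conditional intervals, shares Clopper-Pearson intervals and medians order-statistic intervals, all at 95%. These functions were tested on simulated lists. Autosomal windows span each chromosome between its outermost peaks.

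Named peaks were the 10 highest-scoring members, all members of score 1000 or more, and the highest and widest of each cluster, with its longest empty stretch and densest 100 kb window. The intervals and rules were chosen with earlier results of these data known. The groups of peaks, the isolated peaks and the widths without chromosome 7 were added after the list had been seen. No sequence of a peak is printed, because no mm9 genome was used here.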

Additional observations from a re-analysis of the deposited data

How the results depend on the processing

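Values here are those of the clusters divided by those of the flanks. The density ratio of 0.255 stayed below 1 in all 12 alternatives, and the 2 measures of empty length stayed above 1 in all 24. Leaving out 1 cluster at a time gave density ratios from 0.143 (without chromosome 7) to 0.311 (without chromosome 2 cluster 1), ratios of median width from 0.921 to 0.997 and ratios of length in empty stretches from 2.05 to 2.60. The main ratio of median width, 0.969, was 0.920 at scores of 100 or more. The ratio of the share of empty windows, 2.54, was 3.23 with flanks of 2 Mb, 1.96 at scores of 100 or more, 2.05 in windows of 50 kb and 3.85 in windows of 250 kb. The ratio of length in empty stretches, 2.19, was 2.63 with flanks of 2 Mb, 1.56 at scores of 100 or more, 1.68 for stretches of 50 kb or more and 2.45 for 200 kb or more. The cause of these shifts was not tested, except that fewer peaks and other window sizes change empty lengths by construction. The other 52 of 66 alternatives, among them all for the median score and the share of scores of 100 or more, stayed within the interval of the main value. Except for density, that interval is the one of the clusters divided by the flank value, so counting error of the flanks is left out. For length in empty stretches it treats each 100 kb as 1 independent unit, which is only a rough yardstick. All alternatives use the same list and are not independent support. Unknown read depth limits what can be said of weak peaks. No paired analysis was possible because the series holds a single ChIP library and a single input library, which also leaves no replicate to leave out.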
